A study of Xenopus laevis with 3 samples.

Results

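The genes akr1c2.L and akr1d1.S encode aldo-keto reductases of the African clawed frog (Xenopus laevis), and both were measured in liver after injection of DMSO, pregnenolone or artemisinin. They were found by their symbol in the platform annotation, which gave 2 probe sets, 1 for each gene, out of 15495 probe sets with a single symbol that name 11303 genes. The pair was chosen with its values on these arrays known, so those values are a description. The suffixes .L and .S mark the gene copies on the long and the short chromosomes of this allotetraploid species, and the copies akr1c2.S and akr1d1.L were measured by probe sets of their own.

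The study looked for genes controlled by xlCAR. In mammals CAR, the constitutive androstane receptor, is a nuclear receptor that switches on enzymes of drug metabolism. Each group was 1 array of pooled liver RNA from female frogs. The 3 pregnenolone frogs were given 50 mg/kg and the 3 artemisinin frogs 200 mg/kg, both in DMSO, by intraperitoneal injection on 2 consecutive days, and the control frogs, whose number the labels do not spell out, were given DMSO alone. Livers were taken 24 h after the second injection. No age, strain or genotype was given. With 1 pooled array per group no value has a replicate error, no difference was tested, and the variation between frogs is unknown. The doses of the compounds differ, so their values stand side by side.

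Aldo-keto reductases are soluble enzymes that use NADPH to reduce carbonyl groups. In humans the AKR1C enzymes reduce ketone groups on steroids and also handle prostaglandins, quinones and drug ketones, and several AKR1C genes are known targets of NRF2, a transcription factor that turns on antioxidant genes. Human AKR1D1 is the steroid 5β-reductase, which reduces the ring double bond of bile acid precursors and steroid hormones in the liver, and AKR1C enzymes can act on its products. Which steroids the frog enzymes use was not measured here, and the names rest on the annotation.

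The expression of akr1c2.L (Entrez gene 379255) was lowest with DMSO, higher with pregnenolone and highest with artemisinin. Its log2 level was 6.37 with DMSO, 8.05 with pregnenolone and 11.33 with artemisinin. The artemisinin array was thus 31.2-fold above DMSO (log2 difference 4.96), the highest difference among the 16270 probe sets that passed the level filter, a mean over the arrays of at least 5.61, which is the median over all probe sets. The pregnenolone array was 3.20-fold above DMSO (1.68), at rank 32 from the top among 7478 genes. The DMSO level was 0.76 above this filter and detection calls were not used here, so both folds depend on the background that RMA, the method behind the values, subtracts.

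The expression of akr1d1.S (Entrez gene 399023) was higher on the artemisinin array than on the other arrays, which were close to each other. Its log2 level was 7.67 with DMSO, 7.75 with pregnenolone and 8.84 with artemisinin. Artemisinin was 2.26-fold above DMSO (1.17), at rank 74 of 7478 genes, and pregnenolone 1.06-fold above it (0.08). The difference with pregnenolone was smaller than the spread between probe sets of 1 gene in that comparison, a pooled SD of 0.28 over 1287 genes with several probe sets. The same SD was 0.22 for artemisinin against DMSO. That SD leaves out the variation between frogs and between arrays, and neither gene had a further probe set to set beside the first.

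Both genes were at least 2-fold above DMSO with artemisinin, and akr1c2.L also with pregnenolone. Over all probe sets above the level filter 1.24% were at least 2-fold higher with artemisinin and 1.67% with pregnenolone. The members were chosen on these contrasts, so nothing is read from that count. Both genes also stood above the pregnenolone array with artemisinin, akr1c2.L 9.75-fold (3.29) and akr1d1.S 2.13-fold (1.09), a difference of at least 2-fold that 2.05% of probe sets had. Of 7478 genes 56 were at least 2-fold higher with artemisinin than on both other arrays, and 4 of the 56, akr1c2.L among them, were also at least 2-fold higher with pregnenolone than with DMSO.

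**Figure D1:**
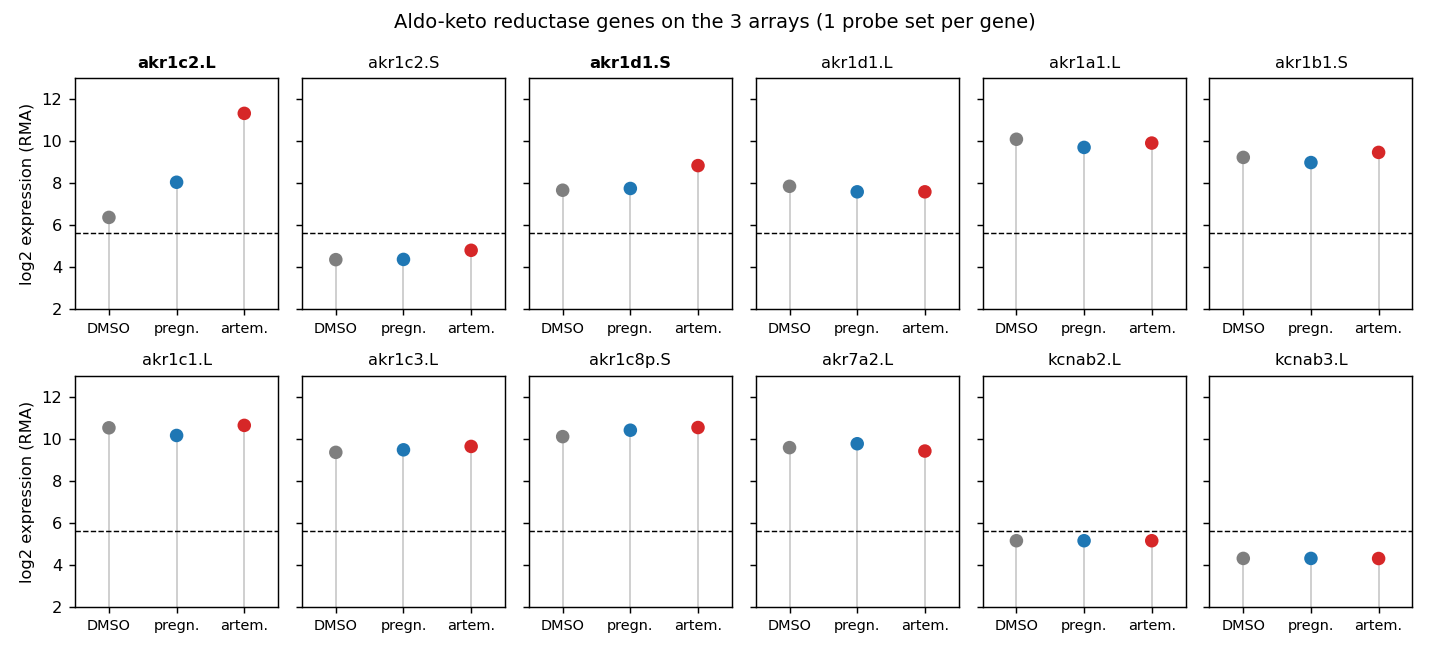
Log2 expression (vertical axis) of the 12 aldo-keto reductase genes named on the array, 1 panel per gene and 1 point per array, using the probe set with the highest mean; the dashed line is the level filter at 5.61, and bold names mark akr1c2.L and akr1d1.S. The akr1c2.L points climb from 6.37 to 11.33, akr1d1.S stands at 8.84 on the artemisinin array alone, and the other genes stay near one level; levels are not comparable between genes, since each probe set binds with its own strength.

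On these arrays the akr1d1.L probe set did not share the pattern of the akr1d1.S probe set. The akr1c2.S probe set lay below the level filter, so its pattern is not compared with that of akr1c2.L. The probe set of akr1c2.S (Entrez gene 779224) was at 4.36 with DMSO, 4.37 with pregnenolone and 4.80 with artemisinin. All of these values lay below the level filter. That filter is the median over all probe sets rather than a detection limit, so whether this signal is above background is unknown. The artemisinin difference of 0.45 is given as a value only. The probe set of akr1d1.L (Entrez gene 734699) was at 7.86 with DMSO and at 7.59 on both treated arrays, a difference of -0.26. Artemisinin thus stood above DMSO for the .S copy and slightly below it for the .L copy. The akr1d1.L values of the treated arrays were exactly equal, and such ties were common on these arrays. The contrast between the akr1d1 copies thus rests on 1 probe set each, with a tied value for akr1d1.L.

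The gap between the copies in their artemisinin differences was 4.52 for akr1c2 and 1.44 for akr1d1. Over all 2009 genes with a probe set for each copy the median gap was 0.13. The akr1c2 gap was the largest of the 2009. It consists mostly of the artemisinin difference of akr1c2.L, on which the pair was chosen, so nothing is read from that rank. The akr1c2.S probe set also lay below the level filter on every array. Among the 1171 genes with both copies above the level filter akr1d1 held rank 4, and 18 had a gap of at least 1. Choosing the pair for its differences favours such ranks. In 23 of the 1171 genes a copy was at least 2-fold higher with artemisinin, and the other copy also reached 2-fold in 5 and 1.5-fold in 11. Copies and paralogs are similar in sequence, and a probe set may pick up more than the gene it is named for, so which copy a value belongs to is uncertain.

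**Figure D2:**
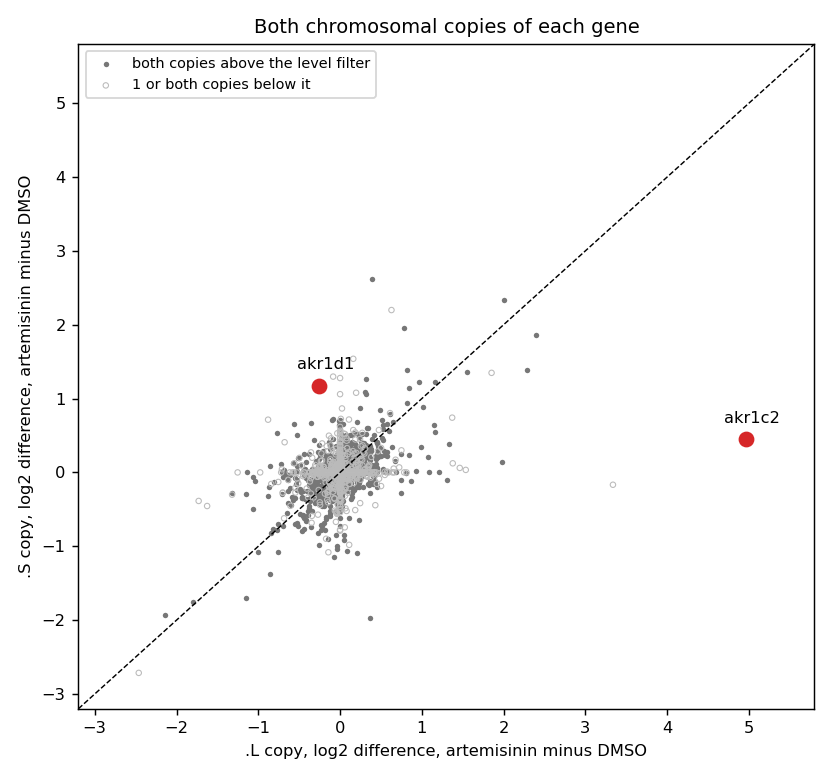
Log2 difference of artemisinin minus DMSO for the .L copy (horizontal axis) and the .S copy (vertical axis) of each of 2009 genes, 1 point per gene; filled points have both copies above the level filter, open points do not, and the dashed line marks equal differences. The akr1c2 point lies at 4.96 and 0.45 and the akr1d1 point at -0.26 and 1.17, both away from the line.

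Both genes lie in clusters of aldo-keto reductase genes, as the order of genes in the RefSeq table of the Xenopus_laevis_v10.1 assembly shows. The .L cluster runs over 8 coding genes from akr1b1.L to akr1d1.L, with akr1c2.L, akr1c3.L and akr1c1.L between them, and 6 of the 8 had a probe set. The .S cluster runs over 6 coding genes from akr1b1.S to akr1d1.S, with akr1c8p.S, akr1c2.S and akr1c4.S between them, and 4 of the 6 had a probe set. The AKR1C neighbours of akr1c2.L differed little from DMSO with artemisinin: akr1c3.L by 0.28 and akr1c1.L by 0.12. The 2 coding genes with a probe set but only a database name lay below the level filter. Their DMSO and artemisinin values were exactly equal, and no constancy is read from such ties. The neighbours of akr1d1.S with a probe set were akr1c2.S (0.45), akr1c8p.S (0.43) and akr1b1.S (0.24).

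**Figure D3:**
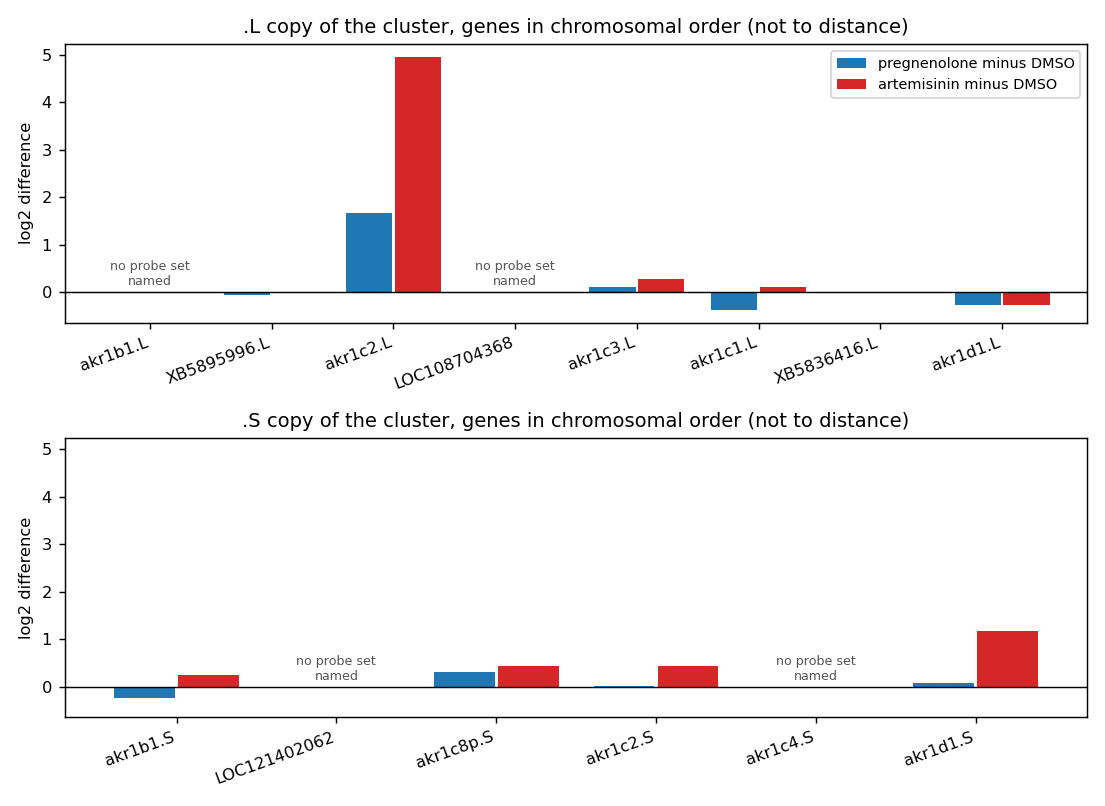
Log2 differences from DMSO (vertical axis, bars from 0) for the genes of both clusters in their chromosomal order, with pregnenolone in blue and artemisinin in red; genes with no named probe set are marked. In the .L cluster the tall bars belong to akr1c2.L (1.68 and 4.96), and in the .S cluster the tallest bar is the artemisinin bar of akr1d1.S (1.17).

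None of the 10 other aldo-keto reductase genes on the array differed from DMSO by 1.5-fold with either compound, at any of their 13 probe sets. A difference of at least 1.5-fold was seen for 6.22% of all genes upwards and 5.03% downwards with pregnenolone, and for 3% upwards and 2.98% downwards with artemisinin. The 13 probe sets ranged from -0.39 to 0.31 with pregnenolone and from -0.26 to 0.45 with artemisinin. Of the 13, 7 were above the level filter, as were all genes behind the shares given. A count of 0 among so few is near those shares, so nothing about the family is read from it.

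Among the further AKR1C genes, akr1c1.L was at 10.54 with DMSO, 10.17 with pregnenolone and 10.65 with artemisinin. The gene akr1c8p.S was at 10.12, 10.42 and 10.55 in the same order. The stronger probe set of akr1c3.L was at 9.37, 9.49 and 9.65, and the weaker one, below the level filter, at 5.08, 4.90 and 4.93, so the 2 probe sets of that gene differ in sign. The stronger one is of the type that can bind several transcripts.

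The reductases of sugars and aldehydes also stayed close to DMSO. Aldehyde reductase, akr1a1.L, was at 10.10 with DMSO, 9.71 with pregnenolone and 9.92 with artemisinin. Aldose reductase, akr1b1.S, which turns glucose into sorbitol, was at 9.23, 8.99 and 9.47. The aldehyde reductase gene akr7a2.L was at 9.59, 9.78 and 9.43. The potassium channel beta subunits kcnab2.L and kcnab3.L, which share the fold of the family, lay below the level filter. Of the 9 family genes above the filter 2 were at least 2-fold higher with artemisinin and 0 lower, against 1.27% and 0.709% of all genes. These 2 are the members themselves, chosen on this contrast, so nothing is read from that count. The median of the 9, members included, was 0.24. Without the members the median of the other 7 was 0.12, and that of all 7478 genes was 0.00. With pregnenolone the 9 genes had a median of 0.08 and the other 7 a median of -0.25.

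**Figure D4:**
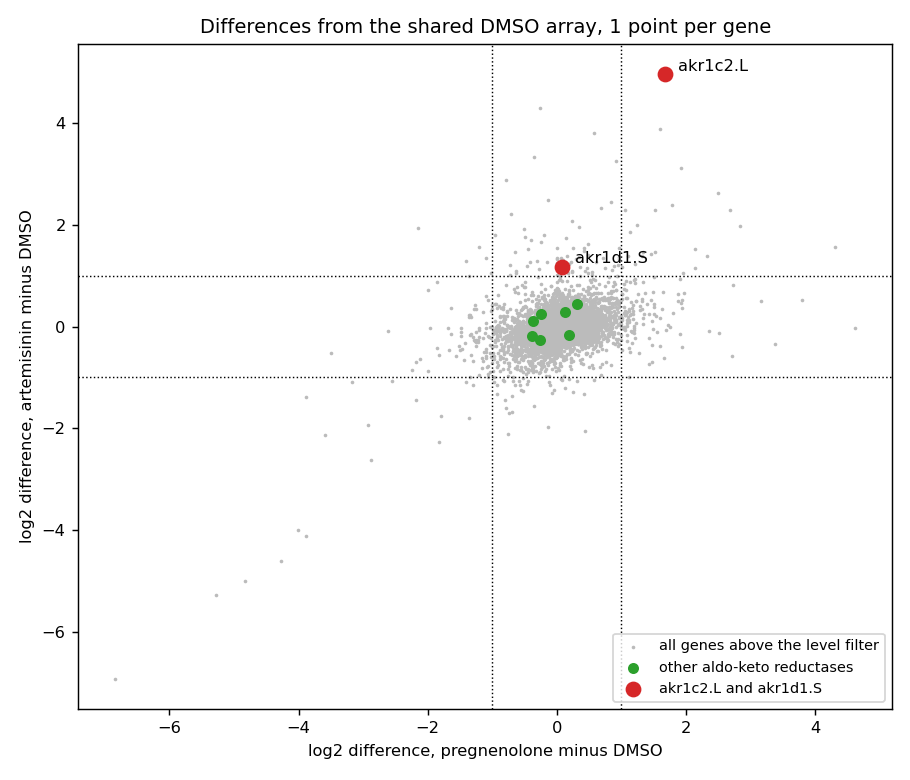
Log2 difference of pregnenolone minus DMSO (horizontal axis) and artemisinin minus DMSO (vertical axis) for 7478 genes, 1 point per gene, with dotted lines at 2-fold; both axes share the DMSO array, so the axes are not independent. The akr1c2.L point is the highest at 4.96, akr1d1.S lies just above the 2-fold line at 1.17, and the 7 other aldo-keto reductases (green) lie within 1.5-fold of DMSO on both axes.

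Likeness to each member was measured as the distance between pairs of log2 differences from DMSO over the 3 arrays, among 7207 other genes with a proper symbol. Within a distance of 1 of akr1c2.L there were 0 of these genes. The pair was chosen on these differences, and akr1c2.L had the highest one with artemisinin, so a lack of near genes follows largely from that. The nearest gene was ptgs2.S, a prostaglandin synthase, at a distance of 1.09 (1.60 with pregnenolone, 3.88 with artemisinin). It was followed by the chemokine gene cxcl8.L (distance 1.59), the glutathione transferase gene gstp1.L (1.86), olfm4.L, which encodes a secreted glycoprotein (1.86), and the chaperone gene hsp70.L (2.05). With DMSO this ptgs2.S probe set was at 5.44, below the level filter of 5.61, and hsp70.L (5.63) and cxcl8.L (5.72) were little above it. With pregnenolone hsp70.L was at 5.37. Their folds thus depend on the background that RMA subtracts. A second ptgs2.S probe set, below the filter on every array, gave 0.20 and 1.89. The differences of gstp1.L were 1.92 with pregnenolone and 3.12 with artemisinin, and its other 4 probe sets ranged from 1.92 to 3.55 with pregnenolone and from 2.80 to 4.35 with artemisinin.

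Many genes resembled akr1d1.S, of which 15 lay within a distance of 0.25 and 52 within 0.5. The nearest was gclc.S, the catalytic subunit of the enzyme that starts glutathione synthesis, at a distance of 0.10. Its log2 level was 7.62 with DMSO, 7.61 with pregnenolone and 8.84 with artemisinin. Next were the cochaperone gene dnajb2.L (0.10), the transcription factor gene nfil3.L (0.12), the tight junction gene cldn5.L (0.14) and tnip1.S (0.14), an inhibitor of inflammatory signalling. Their artemisinin differences ran from 1.06 for tnip1.S to 1.31 for cldn5.L.

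The next genes are those of bile acid synthesis and transport, the pathway in which AKR1D1 acts in mammals. Of 9 bile acid genes above the level filter 1 was at least 2-fold higher with artemisinin and 0 lower, against 1.27% and 0.709% of all genes, and the median was -0.11. The gene that reached 2-fold was ch25h.L, which encodes a cholesterol hydroxylase, with levels of 6.60, 6.89 and 7.92 on the DMSO, pregnenolone and artemisinin arrays. Its second probe set, whose mean lay below the level filter, differed by 0.60 with artemisinin, less than 2-fold. The sterol hydroxylase gene cyp8b1.1.S differed by 0.28 with artemisinin and hsd3b7.S, which acts upstream of the 5β-reductase, by 0.10. With pregnenolone 0 of 9 were at least 2-fold higher and 1 lower, against 1.86% and 1.39% of all genes, namely slc27a2.L (-1.26), which activates fatty acids and bile acid precursors. The mean of its 3 probe sets was -0.78. A second one above the level filter was at -1.06, and the third, below the filter on every array, at -0.02. The genes acox2.L (-0.67) and cyp46a1.2.L (-0.65) were lower by less than 2-fold. With artemisinin cyp46a1.2.L was instead higher than with DMSO (0.67), also by less than 2-fold.

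Of 21 genes of steroid hormone metabolism above the filter 0 were past 2-fold in either direction with either compound. Over all genes 1.86% were higher and 1.39% lower with pregnenolone and 1.27% and 0.709% with artemisinin, so a count of 0 among 21 is near that background. The list median was 0.00 with pregnenolone and -0.16 with artemisinin. Closest to the 2-fold line with pregnenolone were the sulfotransferase gene sult2b1.S (0.97), hsd17b7.S (0.92), whose product also acts in cholesterol synthesis, and the electron carrier gene fdxr.L (0.77). With artemisinin they were srd5a3.S, a member of the steroid 5α-reductase family (-0.80), hsd11b1l.2.S (-0.78) and hsd11b1l.L (-0.55). The 5α-reductase gene srd5a1.S, whose mammalian product reduces the same double bond to the opposite ring form, stood at 6.48 on all 3 arrays. Its values were exactly equal, and such ties were common on these arrays, so no constancy is read from them. The steroid-producing enzyme genes cyp17a1.L, cyp21a2.1.L and hsd3b1.L and the cholesterol carrier gene star.S all lay below the level filter.

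Other carbonyl-reducing and aldehyde-oxidising enzymes had 1 of 32 genes at least 2-fold higher with artemisinin, aldh1a1.L at 1.14, and 0 lower, near the 1.27% and 0.709% of all genes, with a median of 0.00. The retinal-oxidising copy aldh1a1.S differed by 0.64 and rdh10.S by 0.72. With pregnenolone 0 were at least 2-fold higher and 2 lower, against 1.86% and 1.39% of all genes, the alcohol dehydrogenase gene adh1b.L (-1.68) and dhrs13.L (-1.27). Sorbitol dehydrogenase, sord.L, differed by -0.97 with pregnenolone and by -0.59 with artemisinin.

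The NRF2 targets and genes of thiol metabolism, to which AKR1C genes belong in humans, had 9 of 37 genes at least 2-fold higher with artemisinin and 1 lower, against 1.27% and 0.709% of all genes, with a median of 0.15. This list was chosen with earlier results of these arrays known, so the count is a description. A part of NRF2 in the values of akr1c2.L and akr1d1.S was not tested. Above DMSO were gstp1.L (3.12), pir.L (2.48) and gclm.L (2.07), while cat.1.L was lower (-1.04). With pregnenolone 1 of the 37 was at least 2-fold higher, gstp1.L at 1.92, and 0 lower, against 1.86% and 1.39%, with a median of -0.02, while gsta1.L was at -0.95 and gclc.L at 0.74. The gclc.L probe set used was at 1.16 with artemisinin. The mean of the 5 gclc.L probe sets was 0.49, and all but the one used lay below the level filter. The NRF2 gene itself, nfe2l2, was at 0.01 for the .L copy and 0.08 for the .S copy with artemisinin. Of 17 receptor genes 0 passed 2-fold with artemisinin and 1 with pregnenolone, nr1i2.S at 1.23, against 1.27% of all genes higher with artemisinin and 1.86% with pregnenolone. A second nr1i2.S probe set above the filter was at 0.44 with pregnenolone, below 2-fold. The receptor gene ppara.L was at 0.78 with pregnenolone and 0.53 with artemisinin, and its second probe set, also above the filter, at -0.14 and -0.03, so its direction is not settled. The receptor gene rxrg.L was at -0.84 with both compounds.

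**Figure D5:**
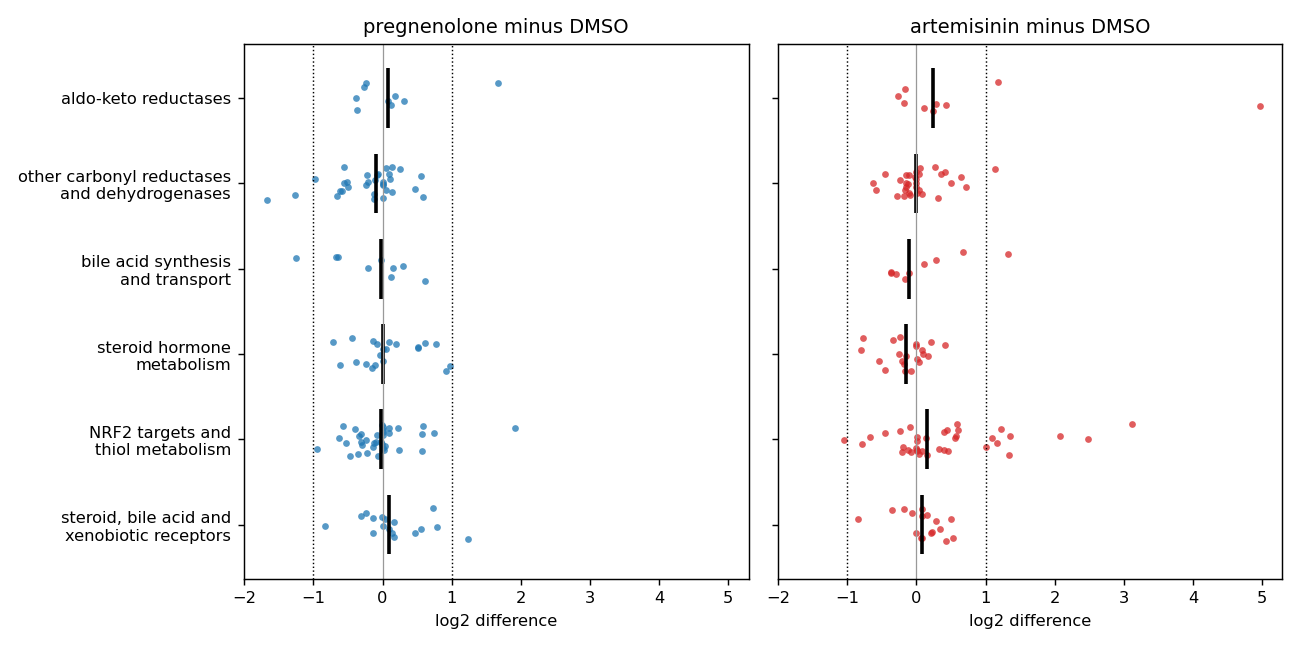
Log2 differences from DMSO (horizontal axis) for the genes of 6 lists above the level filter, 1 point per gene, with pregnenolone on the left and artemisinin on the right; black bars are list medians and dotted lines mark 2-fold. The outlying point of the aldo-keto reductases is akr1c2.L at 1.68 and 4.96, and the list of NRF2 targets holds 9 points to the right of the upper 2-fold line with artemisinin.

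The arrays also differed in markers of other cell types, and in bulk tissue fewer cells of a type and less RNA per cell cannot be told apart. The hepatocyte markers, 17 of 18 above the filter, had a summed level (log2 of the summed linear values) of 17.29 with DMSO, 17.26 with pregnenolone and 17.34 with artemisinin. They include ttr.L (10.32, 8.46 and 11.20), apoa1.L (8.41, 10.91 and 8.29) and apoa1.S (13.34, 13.86 and 13.09), and none of the probe sets used here carried an albumin symbol. Of the 17, 1 was at least 1.5-fold higher and 3 lower with pregnenolone, against 6.22% and 5.03% of all genes. With artemisinin 2 were higher and 0 lower, against 3% and 2.98%. The sum follows the strongest genes and can hide such differences. The sum of 20 exocrine pancreas markers was 13.27 with DMSO, 9.26 with pregnenolone and 9.18 with artemisinin. In the same order prss3.S was at 11.39, 4.56 and 4.47, so the DMSO array stood apart.

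The sum of 12 erythrocyte markers was 15.53, 15.59 and 15.39. Of 11 above the filter 6 were at least 1.5-fold lower with artemisinin, against 2.98% of all genes. Their median difference with artemisinin was -0.72. The haemoglobin gene hba1.S was at 13.99, 14.08 and 13.94. A sum of linear values follows its strongest genes, hba1.S among them, and can hide differences of the weaker ones. The sum of 21 smooth muscle, stellate, endothelial and biliary markers was 13.37, 13.04 and 12.87, with acta2.L at 9.90, 8.08 and 7.63. Of 17 above the filter 8 were at least 1.5-fold lower with each compound, against 5.03% of all genes with pregnenolone and 2.98% with artemisinin. The 8 were not all the same genes with each compound, and both counts share the DMSO array. The list mixes cell types, and its endothelial marker and most of its biliary markers above the filter did not reach 1.5-fold. The 7 leukocyte markers summed to 12.68, 12.32 and 12.41, and 0 of 5 above the filter passed 1.5-fold, a count near the shares of all genes. The 4 markers of steroid-producing cells lay below the filter on all arrays, between 3.47 and 5.11. The part of these cell types in the values of akr1c2.L and akr1d1.S was not tested.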

How the data were processed

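The authors deposited log2 expression values made by robust multiarray averaging (RMA), per the submitters' processing notes, which give no version. In RMA the background is removed, each array is given the same distribution and the probes of a set are combined. That RMA works in log2 and the values reach 14.6 gave the log base. Depth does not apply to arrays, and their number, 1 per group, limits the precision.

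Of 32635 probe sets 96 were controls. Symbols came from the platform annotation and were updated through Entrez gene, which altered 2. A single symbol was given for 15495 probe sets, several for 279 and none for 16765. Differences of log2 values were computed in Python 3.11.15 with pandas 2.3.3 for 3 comparisons. Probe sets with a mean at or above 5.61 entered the counts (16270 probe sets, 7478 genes, each represented by the probe set of highest mean). List members were matched by symbol, ignoring .L, .S and tandem numbers, so copies count separately. No test or p-value was computed. The steps were tested on simulated data.

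Named were all aldo-keto reductases, the 5 genes nearest to each member, up to 3 genes with the largest differences in each list and comparison, and check genes for cell types. Of each cell type list only these check genes are printed. Other list genes were added after their values were seen: cyp8b1.1.S, hsd3b7.S, srd5a1.S, cat.1.L, nfe2l2 and the markers of steroid-producing cells. The members, the 12 lists and the rules were chosen with earlier results of these data known. Alternatives were other fold thresholds, level filters, normalizations and choices of probe set. No protein or promoter sequences were used here.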

Additional observations from a re-analysis of the deposited data

How the results depend on the processing

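Each difference of the members kept its direction and its side of 2-fold under the 5 alternatives run for it, namely centring on array medians, quantile normalization, subtraction of a loess trend (span 0.3), averaging of a gene's probe sets and leaving out those whose names mark cross-hybridisation. The last 2 change nothing, since each gene has 1 unmarked probe set. RMA had already given the arrays a like distribution, with medians of 5.62 (DMSO), 5.61 (pregnenolone) and 5.62 (artemisinin). Centring and quantile normalization could therefore change little, here and in the results on other genes below. For artemisinin minus DMSO the range was 4.96 to 5.01 for akr1c2.L and 1.17 to 1.19 for akr1d1.S. For pregnenolone minus DMSO it was 1.67 to 1.69 and 0.07 to 0.09, and for artemisinin minus pregnenolone 3.27 to 3.34 and 1.08 to 1.13. The median of the 9 aldo-keto reductases with pregnenolone ran from -0.08 to 0.09 over its alternatives, so its sign is not settled. At a threshold of 3-fold 1 aldo-keto reductase, akr1c2.L, was higher with artemisinin than with DMSO and 1 than with pregnenolone. The share of probe sets past the threshold follows the threshold and filter by construction. At 1.5-fold it was 5.48% higher and 4.92% lower for pregnenolone minus DMSO, 2.93% and 2.77% for artemisinin minus DMSO, and 5.13% and 5.65% for artemisinin minus pregnenolone. At 3-fold the shares were 0.510% and 0.529%, 0.387% and 0.160%, and 0.830% and 0.350%. Without the level filter they were 0.990% and 0.900%, 0.750% and 0.403%, and 1.22% and 0.830%. For the 63 other named genes none of 378 values under the 3 other normalizations moved by more than the SD between probe sets. Averaging all probe sets, chosen after seeing the data, moved 15 of 30 values for the 15 of these genes with several. It ended a 2-fold difference for nr1i2.S (0.84), ptgs2.S (0.90) and slc27a2.L (-0.78) with pregnenolone and for ch25h.L (0.96) and gclc.L (0.49) with artemisinin. These averages take in probe sets below the level filter for all of these genes but nr1i2.S. Of 810 recomputed counts and medians of the other lists 68 moved and 0 changed sign from a value past 1.5-fold. Counts cannot change sign and few list medians were past 1.5-fold, so little is read from that 0. The 5 genes nearest to each member were the same 5 under the 3 other normalizations, and dnajb2.L rather than gclc.S came nearest to akr1d1.S under quantile normalization and loess. What limits all of these values is 1 array per group and, for akr1c2.S, a signal below the level filter.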

Other observations

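Exactly equal values on different arrays were common. The pregnenolone and artemisinin values were identical, to every deposited digit, for 8927 of 32539 probe sets, akr1d1.L among them, and the DMSO and pregnenolone values for 10103. The probe sets of akr1c2.L and akr1d1.S had 3 different values each. The 9 probe sets for bacterial spike transcripts, which are added to each sample at hybridisation, were 0.14 to 0.25 above DMSO on the pregnenolone array and 0.20 to 0.39 above it on the artemisinin array.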
